A study of Mus musculus with 16 samples.

Results

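Messenger RNA levels of 30 genes were examined that encode the enzymes of glycolysis (20 genes, from the hexokinases to the lactate dehydrogenases) and of the pentose phosphate pathway with the synthesis of phosphoribosyl pyrophosphate (10 genes). A probe belonged to a gene through its RefSeq accession, and all 30 genes were found among the 21364 genes that could be named on the array. The samples were primary cortical cultures of C57BL/6 mice, measured on 16 one-colour arrays with 4 arrays in each of 4 groups. Astrocyte Klotho and neuron Klotho cultures received 1 nM recombinant secreted Klotho, a circulating protein known as a co-receptor for FGF23, while astrocyte control and neuron control cultures received phosphate-buffered saline, each for 24 h. Astrocytes came from pups of postnatal day 0 to 5, were grown in medium with serum and were shaken for 15 h for a stated purity above 98%, although their labels also carry embryonic day 16. Neurons came from embryonic day 16 cortex and were kept in serum-free Neurobasal with B27 until treatment at 14 days in vitro, so cell type, medium and donor age cannot be told apart. Whether a group's 4 arrays hold RNA of different cultures is not stated in the labels, and the spread behind each p-value may therefore be technical alone. The study's title concerns neuronal Klotho and aerobic glycolysis in astrocytes. Comparisons of 2 kinds bear on it, Klotho against control within a cell type and astrocytes against neurons within a treatment.

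Glycolysis splits glucose into pyruvate, and lactate dehydrogenase interconverts pyruvate and lactate. The pentose phosphate pathway branches off at glucose 6-phosphate, makes NADPH in its oxidative arm and exchanges sugars with glycolysis in its other arm. Most steps have several isozymes from separate genes, and brain astrocytes are known for releasing lactate from glucose, whereas Eno2 is known as neuron-specific enolase.

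Levels below are log2 processed intensities minus the 75th percentile of the array, so that 0 is the brightness of that percentile, and each gene is represented by its brightest probe. All 30 probes were well above background on all 16 arrays and none was saturated. Of the genes, 22 had 1 probe and 8 had several. Probes differ in brightness for reasons other than transcript number, so no gene's level is set against another's. The single Pkm probe does not separate the M1 and M2 splice forms of pyruvate kinase, and Gapdh, Eno1, Ldha, Pgk1 and Tpi1 have processed copies elsewhere in the mouse genome that a probe may also capture. A difference is called where limma's p-value, adjusted by Benjamini and Hochberg over all genes tested, is under 0.05. Probes without a gene name were merged by their array identifier and tested too. Shares and counts given for all genes therefore cover these unnamed units, and of 36721 units on the array 21364 had a gene name.

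Spots well above background made up 57.5% to 67.3% of each array's spots for transcripts. All 8 neuron arrays lay on slide 1, controls in row 1 and Klotho in row 2, so that there the treatment cannot be told apart from the row of the slide, and the neuron and astrocyte arrays were scanned on different days and slides. By the scanner files, astrocyte controls were on slide 2 and astrocyte Klotho arrays on slide 3, so that in astrocytes the treatment cannot be told apart from the slide. Each of these slides had replicates 1 and 2 in row 1 and replicates 3 and 4 in row 2. The deposited value table assigns 4 of the 8 astrocyte arrays to the other treatment. By its assignment all astrocyte arrays in column 3 of a slide are controls and all in column 4 Klotho. Treatment then cannot be told apart from the column. The scanner files were followed, and astrocyte controls 1 and 3 and Klotho arrays 2 and 4 are the arrays on whose treatment both sources are at one. Of 15 neuron markers, 13 were lower and 0 higher in astrocyte than in neuron controls, and of 14 astrocyte markers 10 were higher and 1 lower. The neuron cultures still carried astrocyte genes, with a summed marker level of 116 to 148 in Klotho and 144 to 183 in control neurons. In astrocytes that sum was 333 to 451 with Klotho and 304 to 441 in controls. The astrocyte cultures also carried microglia genes, with 13 of 14 markers higher and a summed level of 170 to 247 in Klotho and 199 to 309 in control astrocytes, against 44.5 to 48.1 in Klotho and 38.3 to 42.3 in control neurons. In bulk samples fewer cells of a type and less RNA per cell cannot be told apart, and the part of other cells in the differences below was not tested.

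The promoters of 7 genes are shown because their genes had the 3 largest called changes in each direction between control astrocytes and neurons, or belong to the 2 isozyme pairs that shifted most. Each window runs from 250 bases before to 50 bases after a RefSeq transcript start (GRCm38.p6), 5′ to 3′ on the gene's strand. For Hk1 and Ldha, which have 2 windows each, the first listed is printed. Capitals mark the core of the element bound by hypoxia-inducible factors, ACGTG or GCGTG on either strand.
Hk2, chr6:82774405-82774704, minus strand: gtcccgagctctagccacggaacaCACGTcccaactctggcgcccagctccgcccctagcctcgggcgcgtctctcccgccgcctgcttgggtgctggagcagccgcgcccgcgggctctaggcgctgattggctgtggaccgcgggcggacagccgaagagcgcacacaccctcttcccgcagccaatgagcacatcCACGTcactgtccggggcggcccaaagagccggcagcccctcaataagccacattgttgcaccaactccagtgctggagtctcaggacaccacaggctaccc
Hk1, chr10:62379859-62380158, minus strand: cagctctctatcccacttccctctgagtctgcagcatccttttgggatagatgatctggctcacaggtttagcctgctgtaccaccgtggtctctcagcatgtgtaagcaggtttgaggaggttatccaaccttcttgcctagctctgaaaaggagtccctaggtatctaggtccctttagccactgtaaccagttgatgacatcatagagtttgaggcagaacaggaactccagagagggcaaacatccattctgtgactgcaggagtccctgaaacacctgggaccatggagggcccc
Ldha, chr7:46845554-46845853, plus strand: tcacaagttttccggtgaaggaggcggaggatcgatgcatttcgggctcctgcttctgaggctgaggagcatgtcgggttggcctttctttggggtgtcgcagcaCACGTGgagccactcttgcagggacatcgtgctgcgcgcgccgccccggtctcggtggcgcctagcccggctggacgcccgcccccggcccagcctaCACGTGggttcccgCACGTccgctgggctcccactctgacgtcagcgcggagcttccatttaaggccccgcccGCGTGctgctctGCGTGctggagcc
Ldhb, chr6:142507908-142508207, minus strand: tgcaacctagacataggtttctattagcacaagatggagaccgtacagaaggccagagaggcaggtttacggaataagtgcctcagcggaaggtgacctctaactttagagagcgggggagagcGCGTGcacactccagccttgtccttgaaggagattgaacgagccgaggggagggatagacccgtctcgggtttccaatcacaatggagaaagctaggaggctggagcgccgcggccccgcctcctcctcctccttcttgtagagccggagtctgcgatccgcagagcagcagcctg
Eno2, chr6:124769624-124769923, minus strand: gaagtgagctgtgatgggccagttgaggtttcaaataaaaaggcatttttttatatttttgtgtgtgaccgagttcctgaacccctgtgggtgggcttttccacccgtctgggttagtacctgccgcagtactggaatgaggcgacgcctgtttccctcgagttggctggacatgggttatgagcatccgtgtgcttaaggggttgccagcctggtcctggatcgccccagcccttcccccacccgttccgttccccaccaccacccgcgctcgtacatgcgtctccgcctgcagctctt
H6pd, chr4:150003187-150003486, minus strand: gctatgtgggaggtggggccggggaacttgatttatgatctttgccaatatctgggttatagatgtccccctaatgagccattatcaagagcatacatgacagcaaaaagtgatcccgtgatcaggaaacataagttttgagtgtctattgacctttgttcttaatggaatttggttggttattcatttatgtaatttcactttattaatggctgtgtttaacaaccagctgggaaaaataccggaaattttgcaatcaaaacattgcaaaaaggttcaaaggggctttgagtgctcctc
Rpia, chr6:70792126-70792425, minus strand: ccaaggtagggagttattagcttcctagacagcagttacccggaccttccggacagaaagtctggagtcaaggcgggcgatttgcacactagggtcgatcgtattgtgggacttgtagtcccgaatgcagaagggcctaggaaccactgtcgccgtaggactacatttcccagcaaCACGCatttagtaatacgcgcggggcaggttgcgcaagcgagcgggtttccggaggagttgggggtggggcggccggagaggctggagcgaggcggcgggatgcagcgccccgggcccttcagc
The printed Ldha window held 7 matches, which overlap in its 2 copies of CACGTG, the E-box bound by MYC and related factors. Hk2 held 2 matches, Ldhb and Rpia 1 each, and Eno2, H6pd and the printed Hk1 window 0. The windows that were not printed held 5 matches for Hk1 and 2 for Ldha. Over all windows of the 30 genes, 35 of 45 (77.8%) held at least 1 match, beside 43.8% of all 32851 windows. The E-box was found in 4 of 45 (8.89%), beside 7.15% of all windows. Windows of 1 gene can overlap, and a match in these letters is a description, not a bound site.

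Between the cell types, 11 of the 30 genes differed in control cultures and 18 in Klotho cultures, and hexokinase 2 differed most. In astrocyte control against neuron control, 6 genes (20.0%) were higher and 5 (16.7%) lower, where 22.3% of all 25995 genes tested were higher and 30.9% lower. In astrocyte Klotho against neuron Klotho, which shares no array with the first comparison, 8 genes (26.7%) were higher and 10 (33.3%) lower, where 27.6% of 24182 genes were higher and 36.2% lower. At this scaling the shares were near or below those of all genes. The median log2 change of the 30 was -0.15 in control and -0.20 in Klotho cultures, and over all genes tested -0.22 and -0.19. The 6 genes higher in the control comparison, Hk2, Ldhb, H6pd, G6pdx, Pfkfb3 and Pgd, were all among the 8 higher in the Klotho comparison. Of the 5 lower genes, Eno2, Ldha, Hk1 and Pfkfb4 were lower in both, and Rpia in the control comparison. Pgk1 and Rpe were added on the higher side in Klotho cultures, and Pfkl, Pfkm, Pgam1, Pgls, Prps1 and Tpi1 on the lower side. The 10 lower genes in Klotho cultures became 4 without neuron Klotho 1 or neuron Klotho 3, and 5 without neuron Klotho 4 or astrocyte Klotho 4.

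**Figure D1:**
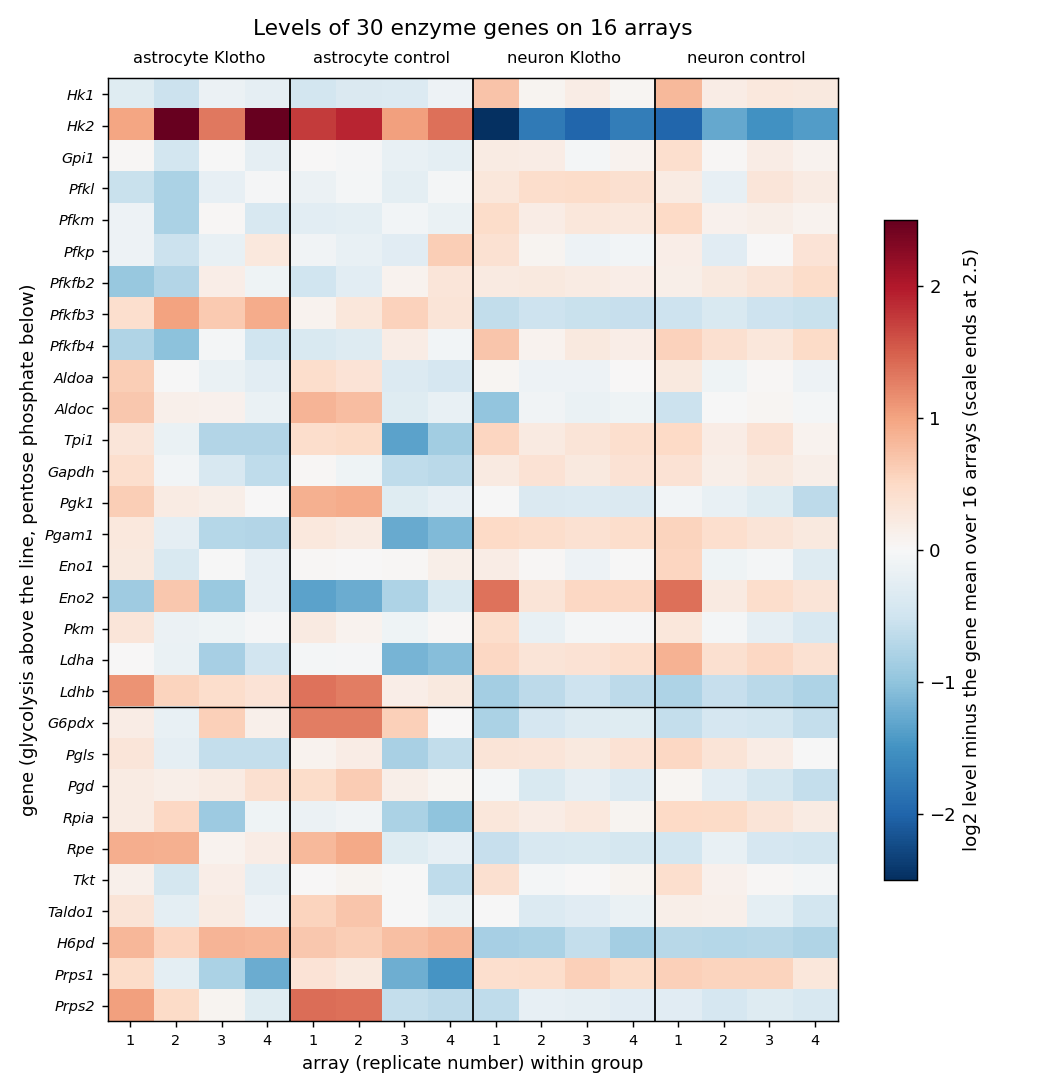
Level of each of the 30 enzyme genes on each of the 16 arrays (columns, replicates 1 to 4 within each group), as log2 level minus the gene's mean over all arrays, with colours ending at 2.5. Hk2 is red on all 8 astrocyte arrays and blue on all 8 neuron arrays, and astrocyte arrays 1 and 2 differ from 3 and 4 in genes such as Tpi1, Pgam1, Prps1 and Prps2.

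The split into higher and lower depended on how the arrays were scaled to each other. Under quantile scaling 13 genes were higher and 2 lower in control cultures, and 11 higher and 5 lower in Klotho cultures. The shares higher and lower were then 43.3% and 6.67% of the 30 in controls, beside 25.1% and 28.7% of all genes, and 36.7% and 16.7% with Klotho, beside 29.8% and 34.0%. With centring on the median, 5 were higher and 1 lower in control cultures, and 8 higher and 5 lower in Klotho cultures, where 20.9% and 24.3% of all genes were called in controls and 28.5% and 32.6% with Klotho. Quantile scaling moved the median over all genes to -0.11 in control cultures, and that of the 30 genes to 0.44. The calls shared by 5 settings (the main one, normexp background, median scaling, quantile scaling and the value table's assignment) were Hk2, Pfkfb3, Ldhb, G6pdx and H6pd on the higher side and Eno2 on the lower side in control cultures. In Klotho cultures they were Hk2, Pfkfb3, Ldhb, Rpe and H6pd on the higher side and Pfkl and Pfkfb4 on the lower side.

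**Figure D2:**
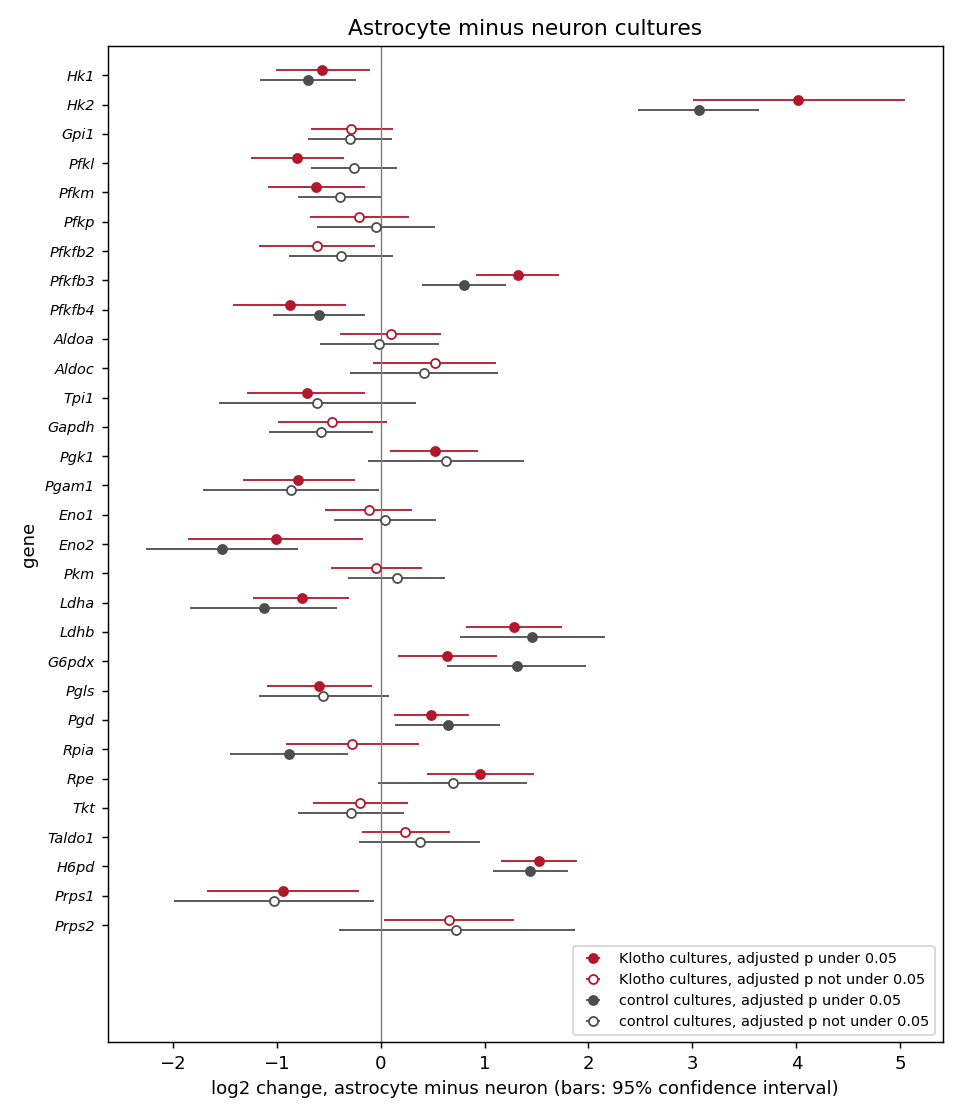
Log2 change of each enzyme gene, astrocyte minus neuron, in Klotho cultures (red, upper) and control cultures (grey, lower), with 95% confidence intervals and filled points where the adjusted p is under 0.05. The 2 comparisons rest on 8 arrays each and share none, and Hk2 lies at 4.02 and 3.06.

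Hexokinases phosphorylate glucose at the first step. Hk2, the form that is prominent in muscle and proliferating cells, had levels of 0.06, 1.76, 0.39 and 2.16 in astrocyte Klotho and 0.82, 0.97, 0.10 and 0.45 in astrocyte control arrays. The neuron Klotho arrays gave -3.45, -2.70, -2.92 and -2.66, and the neuron control arrays -2.92, -2.22, -2.45 and -2.32. Every astrocyte value lay above every neuron value, and astrocyte Klotho 2 and 4 were the highest. The log2 change was 4.02 ± 0.45 (SE, n = 4 per group) in Klotho cultures, a 16.2-fold difference (adjusted p = 3.58e-05), and 3.06 ± 0.26 in control cultures, 8.33-fold (adjusted p = 1.05e-05). Hk1, the hexokinase of most brain cells, ran the other way, at 5.63, 5.39, 5.78 and 5.71 in astrocyte Klotho and 5.47, 5.56, 5.59 and 5.80 in astrocyte control arrays. It had 6.64, 6.00, 6.11 and 5.98 in neuron Klotho and 6.74, 6.12, 6.19 and 6.17 in neuron control arrays. The cell types did not overlap, and replicate 1 was the highest neuron array in both treatments. The changes were -0.56 ± 0.20 in Klotho (adjusted p = 0.0344) and -0.70 ± 0.20 in control cultures (adjusted p = 0.0172), but under quantile scaling they were -0.09 and 0.01 with no call.

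Of the phosphofructokinases, which commit sugar to glycolysis, none was called in control cultures. Pfkl had 0.73, 0.51, 1.08 and 1.26 in astrocyte Klotho and 1.14, 1.24, 1.04 and 1.25 in astrocyte control arrays, against 1.58, 1.74, 1.75 and 1.70 in neuron Klotho and 1.5, 1.09, 1.60 and 1.49 in neuron control arrays. Its Klotho groups did not overlap, and its control groups did. Pfkl, the liver form, changed by -0.80 ± 0.20 (adjusted p = 0.00572) in Klotho and -0.26 ± 0.18 in control cultures, and Pfkm, the muscle form, by -0.62 ± 0.21 (adjusted p = 0.0249) and -0.39 ± 0.18. Pfkp, the platelet form, had changes of -0.21 ± 0.21 and -0.04 ± 0.25. Its less bright probe gave 0.44 ± 0.26 in control cultures, so the 2 probes of Pfkp differed in sign.

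The bifunctional PFKFB enzymes set the level of fructose 2,6-bisphosphate, which activates phosphofructokinase, and Pfkfb3 is the form whose activity is mostly kinase. Pfkfb3 had 3.1, 3.67, 3.32 and 3.60 in astrocyte Klotho and 2.75, 2.95, 3.24 and 2.99 in astrocyte control arrays. All neuron arrays were lower, at 2.06, 2.16, 2.11 and 2.10 with Klotho and 2.15, 2.29, 2.15 and 2.11 in controls. It was higher in astrocytes by 1.32 ± 0.18 in Klotho (adjusted p = 0.000132) and by 0.80 ± 0.18 in control cultures (adjusted p = 0.00435). The less bright probe of Pfkfb3 gave a smaller change of the same sign in control cultures, 0.47 ± 0.38 (limma, unadjusted p = 0.239). Pfkfb4 had 0.74, 0.48, 1.45 and 1.01 in astrocyte Klotho and 1.11, 1.17, 1.68 and 1.44 in astrocyte control arrays, against 2.19, 1.59, 1.74 and 1.66 in neuron Klotho and 2.08, 1.90, 1.79 and 1.97 in neuron control arrays. Within each treatment the astrocyte values lay below the neuron values. It was lower in astrocytes by -0.87 ± 0.24 (adjusted p = 0.0104) with Klotho and -0.59 ± 0.19 (adjusted p = 0.0298) in controls. Pfkfb2, the form known from heart, was not called, with -0.61 ± 0.25 and -0.38 ± 0.22.

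From the splitting of fructose 1,6-bisphosphate to phosphoglycerate, little passed the test in control cultures. Aldoc had 7.52, 6.98, 6.95 and 6.69 in astrocyte Klotho and 7.71, 7.62, 6.55 and 6.67 in astrocyte control arrays, against 5.87 to 6.76 in neuron Klotho and 6.32 to 6.90 in neuron control arrays, and the cell types overlapped. The aldolase genes Aldoa and Aldoc, of which Aldoc is known as an astrocyte gene in brain, changed by 0.10 ± 0.21 and 0.52 ± 0.26 in Klotho cultures and by -0.01 ± 0.25 and 0.42 ± 0.31 in control cultures. Gpi1, the isomerase before phosphofructokinase, had -0.28 ± 0.18 in Klotho and -0.29 ± 0.18 in control cultures. Gapdh, which makes the first NADH of the pathway and is often used as a reference gene, had -0.47 ± 0.23 and -0.57 ± 0.22, and its 7 probes all had negative changes in control cultures. Pgk1, the first ATP-yielding step, was higher in Klotho cultures (0.52 ± 0.19, adjusted p = 0.0374). Tpi1 (-0.71 ± 0.25, adjusted p = 0.0305) and Pgam1, the mutase of phosphoglycerate (-0.79 ± 0.24, adjusted p = 0.0155), were lower there. In control cultures Pgk1 had 0.63 ± 0.33, Tpi1 -0.61 ± 0.42 and Pgam1 -0.86 ± 0.38, changes of much the same size with larger errors.

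Eno2, the neuronal enolase, had 2.27, 3.82, 2.23 and 2.95 in astrocyte Klotho and 1.81, 1.90, 2.38 and 2.77 in astrocyte control arrays. It had 4.5, 3.47, 3.67 and 3.67 in neuron Klotho and 4.52, 3.37, 3.59 and 3.48 in neuron control arrays. Control values did not overlap between the cell types, whereas astrocyte Klotho 2 lay among the neuron arrays. The change was -1.01 ± 0.38 in Klotho (adjusted p = 0.0387) and -1.52 ± 0.32 in control cultures (adjusted p = 0.00361). Eno1, the general enolase, had -0.11 ± 0.19 and 0.04 ± 0.22, and Pkm, the pyruvate kinase of brain, -0.04 ± 0.20 and 0.16 ± 0.20, neither of which was called.

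The 2 subunits of lactate dehydrogenase moved in opposite directions. Ldha, the subunit that predominates in muscle, had 6.50, 6.33, 5.66 and 6.00 in astrocyte Klotho and 6.43, 6.45, 5.33 and 5.43 in astrocyte control arrays, against 7.0, 6.81, 6.84 and 6.91 in neuron Klotho and 7.36, 6.89, 7.01 and 6.86 in neuron control arrays. Ldhb, the subunit that predominates in heart, had 7.61, 7.05, 6.92 and 6.83 in astrocyte Klotho and 7.84, 7.77, 6.65 and 6.73 in astrocyte control arrays, against 5.63, 5.83, 5.97 and 5.84 in neuron Klotho and 5.71, 5.91, 5.81 and 5.72 in neuron control arrays. All astrocyte values lay below all neuron values for Ldha and above them for Ldhb. Ldha was lower in astrocytes by -0.76 ± 0.21 in Klotho (adjusted p = 0.00944) and -1.12 ± 0.31 in control cultures (adjusted p = 0.0139), a 2.17-fold difference in the controls that its 3 probes shared in sign. Under quantile scaling the Ldha changes were -0.24 and -0.33 with no call. Ldhb was higher by 1.28 ± 0.21 (adjusted p = 0.000431) and 1.46 ± 0.31 (adjusted p = 0.00357), or 2.75-fold in the controls.

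In the oxidative arm of the pentose phosphate pathway, genes of the NADPH-making steps were higher in astrocytes. H6pd encodes the form of glucose 6-phosphate dehydrogenase in the endoplasmic reticulum. It had 1.17, 0.87, 1.19 and 1.17 in astrocyte Klotho and 1.02, 0.96, 1.09 and 1.18 in astrocyte control arrays, against -0.49, -0.45, -0.25 and -0.50 in neuron Klotho and -0.36, -0.37, -0.35 and -0.41 in neuron control arrays. No array of one cell type came near the other, and the change was 1.52 ± 0.16 in Klotho (adjusted p = 2.51e-05) and 1.44 ± 0.16 in control cultures (adjusted p = 6.29e-05). G6pdx, the cytosolic form on the X chromosome, had 3.89, 3.53, 4.31 and 3.84 in astrocyte Klotho and 4.99, 4.99, 4.31 and 3.73 in astrocyte control arrays. Its neuron values were 2.93, 3.30, 3.39 and 3.40 with Klotho and 3.12, 3.29, 3.26 and 3.11 in controls, all below the astrocyte values. It was higher by 0.64 ± 0.21 (adjusted p = 0.0228) with Klotho and by 1.31 ± 0.30 (adjusted p = 0.00514) in controls.

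Pgd, the 6-phosphogluconate dehydrogenase, had 3.04, 2.98, 3.04 and 3.22 in astrocyte Klotho and 3.29, 3.47, 2.98 and 2.88 in astrocyte control arrays, against 2.78, 2.45, 2.60 and 2.48 in neuron Klotho and 2.87, 2.56, 2.38 and 2.23 in neuron control arrays. The cell types met without overlap in controls, where the lowest astrocyte and the highest neuron array lay at 2.88 and 2.87. The change was 0.49 ± 0.16 (adjusted p = 0.0219) with Klotho and 0.65 ± 0.22 (adjusted p = 0.0351) in controls. Pgls, the lactonase between the dehydrogenases, did not share this direction, with -0.59 ± 0.22 (adjusted p = 0.0423) with Klotho and -0.55 ± 0.27 in controls.

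In the non-oxidative arm, the isomerase of ribulose 5-phosphate was called lower in astrocytes in control cultures alone, and the epimerase higher in Klotho cultures alone. Rpia, the isomerase, had -0.31, 0.00, -1.42 and -0.63 in astrocyte Klotho and -0.66, -0.60, -1.30 and -1.52 in astrocyte control arrays. Its neuron values were -0.23, -0.33, -0.26 and -0.45 with Klotho and -0.02, -0.03, -0.20 and -0.31 in controls. Astrocyte controls lay below all neuron controls, while the Klotho groups overlapped, and the change was -0.88 ± 0.25 in controls (adjusted p = 0.0158) and -0.27 ± 0.28 with Klotho. Rpe, the epimerase, had 0.96 ± 0.23 with Klotho (adjusted p = 0.00443) and 0.70 ± 0.32 in controls. Tkt (-0.20 ± 0.20 and -0.28 ± 0.22) and Taldo1 (0.24 ± 0.19 and 0.38 ± 0.26), the transketolase and transaldolase that return carbon to glycolysis, were not called in Klotho or control cultures. Prps1 and Prps2 make phosphoribosyl pyrophosphate for nucleotide synthesis. Prps1 had 3.54, 2.84, 2.29 and 1.84 in astrocyte Klotho and 3.42, 3.32, 1.87 and 1.61 in astrocyte control arrays, against 3.51 to 3.68 in neuron Klotho and 3.37 to 3.68 in neuron control arrays. Prps2 had 0.66, 0.13, -0.29 and -0.67 in astrocyte Klotho and 1.03, 1.01, -0.95 and -1.01 in astrocyte control arrays, against -0.99 to -0.57 in neuron Klotho and -0.77 to -0.65 in neuron control arrays. For both genes, astrocyte replicates 1 and 2 lay above replicates 3 and 4. Prps1 was lower with Klotho (-0.94 ± 0.33, adjusted p = 0.0287) and had -1.02 ± 0.42 in controls, while Prps2 had 0.66 ± 0.28 and 0.73 ± 0.50 with no call.

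Ratios of isozymes within an array do not depend on how arrays are centred, and 10 pairs were compared by an exact permutation test of 4 against 4 arrays (70 arrangements, two-sided, smallest possible p = 0.0286, adjusted over the 10 pairs within a comparison). Between the cell types 7 pairs passed in Klotho cultures (adjusted p = 0.0408 each) and 6 in control cultures (adjusted p = 0.0476 each), with no overlap between the groups in each of them. A pair could pass only if at least 6 of the 10 were fully separated, and control cultures had no more than that number. Pfkfb3 over Pfkfb4 and Pfkfb2 over Pfkfb3, both among them, share a gene and are not independent. Ratios and single genes rest on the same arrays and are not separate evidence. Quantile scaling, which is more than a shift of each array, gave 3.01 for Hk2 over Hk1 in controls. Hk2 over Hk1 was higher in astrocytes by 4.58 ± 0.64 (log2, SE) with Klotho and 3.76 ± 0.38 in controls. Ldha over Ldhb averaged -0.98 ± 0.25 in astrocyte Klotho and 1.07 ± 0.22 in neuron Klotho (SD, n = 4), and -1.34 ± 0.05 in astrocyte control and 1.24 ± 0.29 in neuron control. The shifts were -2.05 ± 0.16 and -2.58 ± 0.15.

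Prps2 over Prps1 shifted by 1.60 ± 0.12 with Klotho and 1.75 ± 0.13 in controls, although neither comparison called Prps2 itself. Pfkfb3 over Pfkfb4 shifted by 2.19 ± 0.32 and 1.39 ± 0.10, and Pfkfb2 over Pfkfb3 by -1.93 ± 0.27 and -1.19 ± 0.16. Eno1 over Eno2 shifted by 1.56 ± 0.23 in controls and by 0.89 ± 0.53 with Klotho, where astrocyte Klotho 2 lay among the neurons and the adjusted p was 0.190. Aldoc over Aldoa (0.42 ± 0.26) and H6pd over G6pdx (0.88 ± 0.15) passed in Klotho cultures, and had 0.43 ± 0.23 and 0.13 ± 0.35 in controls (neither passed the exact permutation test). With the value table's assignment H6pd over G6pdx was 0.70 ± 0.37 in Klotho cultures, the groups overlapped and the pair no longer passed (adjusted p = 0.179, exact permutation). The phosphofructokinase pairs did not pass, although by the value table's assignment Pfkp over Pfkm did in Klotho cultures (0.67 ± 0.19). Pfkl over Pfkm had shifts of -0.18 ± 0.20 and 0.14 ± 0.15, and Pfkp over Pfkm of 0.41 ± 0.20 and 0.35 ± 0.26.

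**Figure D3:**
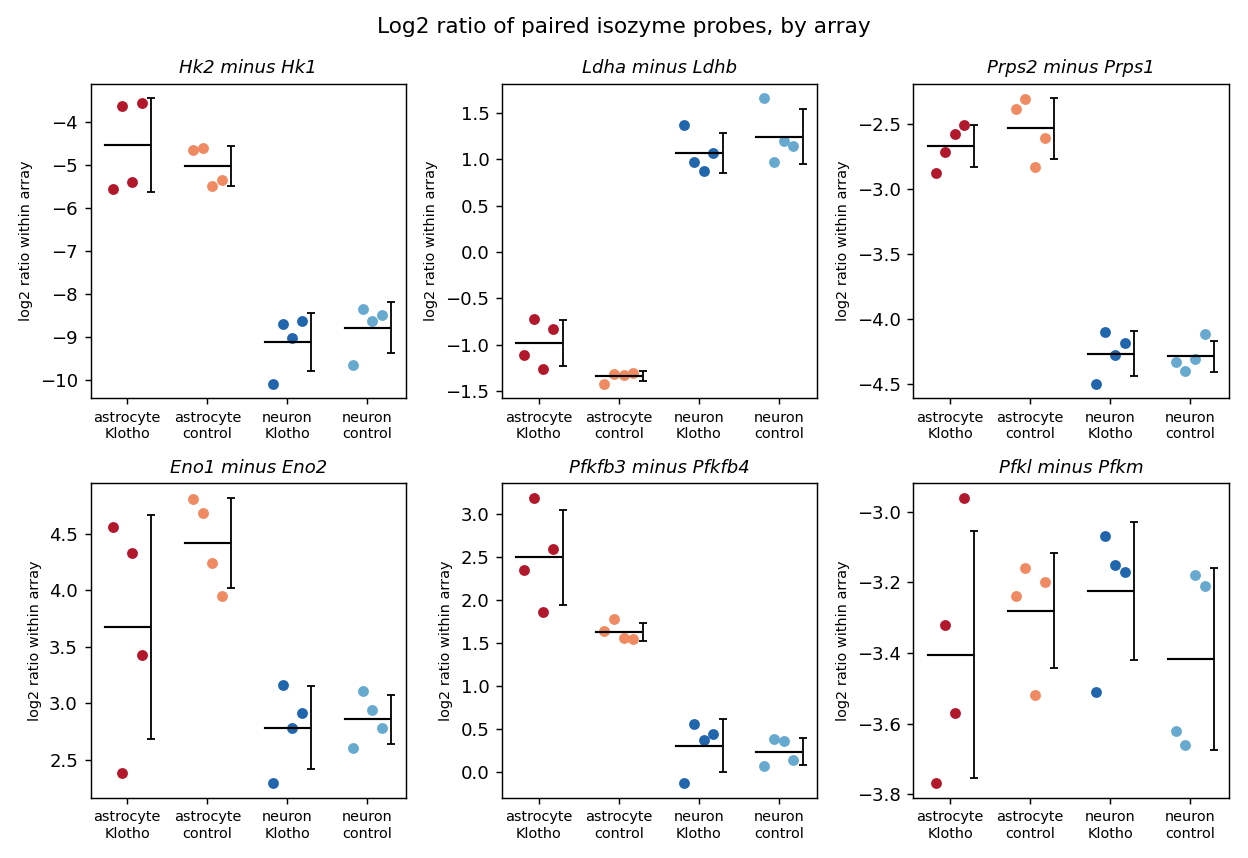
Log2 ratio of 2 isozyme probes within each array for 6 of the 10 pairs, by group, with points for arrays, horizontal lines for group means and vertical bars for the SD of 4 arrays. A ratio has no absolute meaning across probes, so that only differences between groups are read, and the astrocyte and neuron arrays separate for Hk2 over Hk1, Ldha over Ldhb, Prps2 over Prps1 and Pfkfb3 over Pfkfb4 but not for Pfkl over Pfkm.

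Within the astrocyte arrays, row of the slide went with a difference that touched 15 of the 30 genes. With treatment in the model, row 2 (replicates 3 and 4) against row 1 (replicates 1 and 2) gave 2 genes higher and 13 lower, where 21.7% of 23958 genes were higher and 25.5% lower. Both rows hold 2 arrays of each treatment under either assignment. What else the arrays of a row shared is not recorded. The largest falls were those of Prps2 (-1.44, adjusted p = 0.00466), Prps1 (-1.38, 0.00365), Tpi1 (-1.18, 0.00481) and Pgam1 (-1.08, 0.00459), and Pfkfb2 (0.72, 0.00817) and Pfkfb4 (0.52, 0.0329) were higher. For Prps1, with the values given above, all 4 row 2 arrays lay below all 4 row 1 arrays. The same held for Pgam1, at 4.36 to 4.91 in row 2 and 5.39 to 5.89 in row 1. Tpi1, Gapdh, Pgam1, Pgls, Rpia, Rpe, Prps1 and Prps2 were lower in all 5 settings named above, whereas quantile scaling called 7 genes higher and 8 lower in all, and median scaling 0 and 13 with a median of -0.49 over all genes. Marker sums moved with the row too, as microglia genes summed to 241 to 309 in row 2 and 170 to 220 in row 1, neuron markers to 55.3 to 104 and 34.3 to 52.5, and oligodendrocyte markers to 88.5 to 132 and 39.4 to 87.5. Vascular and fibroblast markers went the other way, at 81.6 to 125 in row 2 and 128 to 220 in row 1. Sums follow their brightest probes and can hide members that differ. Of 14 microglia markers only Itgam was called (1.60, higher in row 2), and the median change of the list was 0.05. Of 12 neuron markers tested, 2 were higher in row 2, Snap25 (1.66) among them, and 3 lower. Between astrocyte and neuron controls neither Itgam (0.23 ± 0.62) nor Snap25 (-0.08 ± 0.65) was called. The part of cells carrying these markers in the row difference was not tested.

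Against all 8 neuron arrays, the 4 row 2 arrays had 7 genes higher and 14 lower, and the 4 row 1 arrays 12 higher and 7 lower. Of all 25130 genes, 34.9% were higher and 42.5% lower for row 2, and 31.5% and 40.5% for row 1. Called in both rows were Hk2, Pfkfb3, Ldhb, G6pdx, Pgd, Rpe and H6pd on the higher side, and Hk1, Pfkl, Pfkm, Pfkfb4, Eno2 and Ldha on the lower side. Gpi1, Tpi1, Gapdh, Pgam1, Pgls, Rpia and Prps1 were lower with row 2 arrays alone. Aldoc, Pgk1, Taldo1 and Prps2 were higher with row 1 arrays alone. Aldoa was called in opposite directions, at -0.28 for row 2 and 0.36 for row 1. Hk2 differed from neurons by 3.48 for row 2 and 3.60 for row 1, and H6pd by 1.56 and 1.40. Prps1 differed by -1.67 for row 2 and -0.29 for row 1, and Pgam1 by -1.36 and -0.28. Prps2 over Prps1, in contrast, ranged from -2.83 to -2.51 in row 2 and from -2.88 to -2.31 in row 1, both above the neuron range of -4.5 to -4.10.

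**Figure D4:**
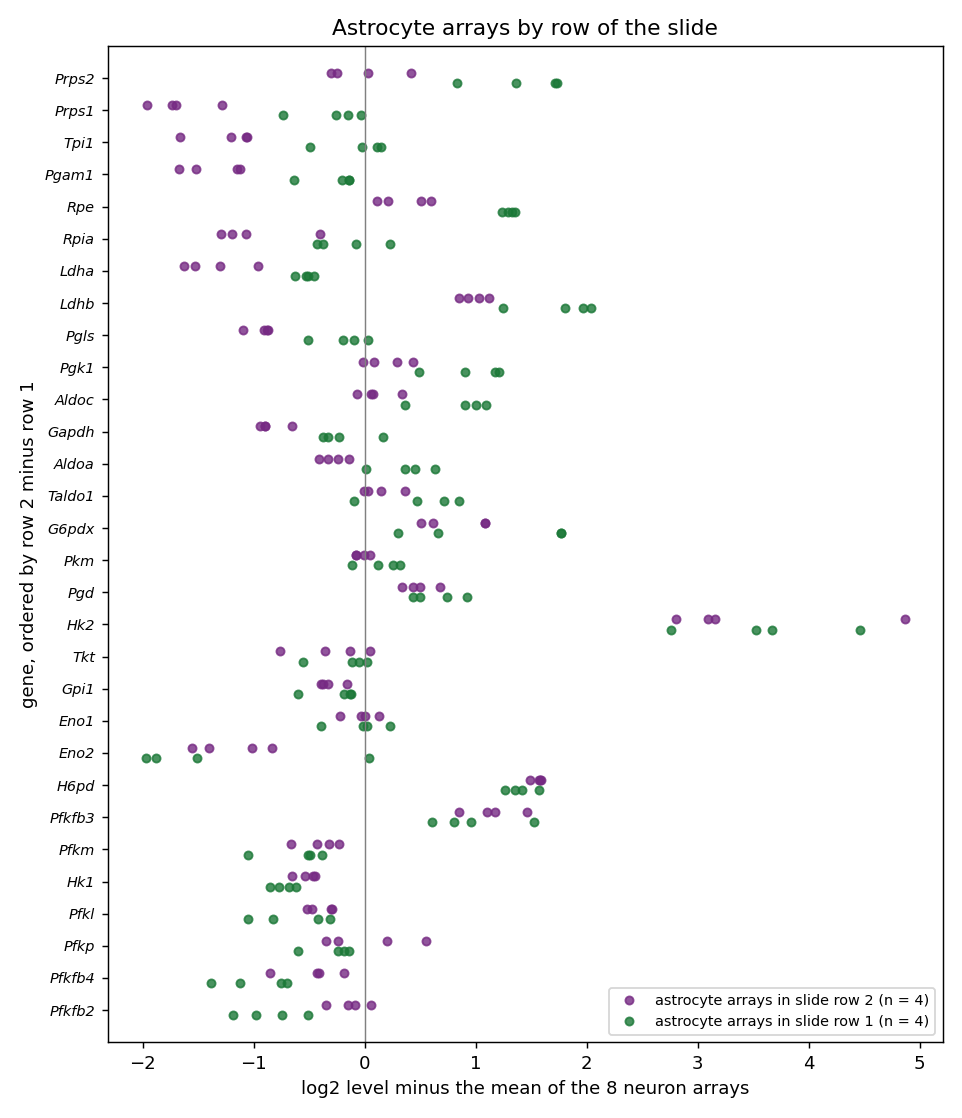
Level of each enzyme gene on each astrocyte array minus the mean of the 8 neuron arrays, for slide row 2 (purple) and slide row 1 (green), with genes ordered by the difference between rows. Hk2, H6pd and Pfkfb3 lie to the right and Hk1 to the left of 0 in both rows, while Tpi1, Pgam1 and Prps1 lie further below 0 in row 2 than in row 1.

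With Klotho, no enzyme gene was called in either cell type. In neurons 0 of 30 were called, where 0.15% of 24705 genes were (37 lower and 0 higher), and 0 of 30 had an unadjusted p under 0.05, against 1063 of all genes. With the replicate number as a block, 24 of all genes were lower and still 0 of the 30. Changes were positive in 15 genes and negative in 15, between -0.45 and 0.28, with a median of -0.0045 beside -0.03 over all genes. The 4 Klotho and 4 control values overlapped in all 30 genes, while they did not in 4.21% of all genes. The smallest p-values belonged to Pfkl, Hk2, Rpia and Ldha.

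Pfkl had levels of 1.58 to 1.75 in neuron Klotho and 1.09 to 1.60 in neuron control arrays. Only the lowest Klotho value lay within the control range, and the change was 0.28 ± 0.13 (adjusted p = 0.988, 95% interval -0.02 to 0.57). Hk2, with the values given above, had a difference of -0.45 ± 0.22 (adjusted p = 0.988, 95% interval -0.95 to 0.04). It was lower in each of the 4 Klotho arrays than in the control of the same number, and with the replicate number as a block the difference was -0.45 ± 0.07 (unadjusted p = 0.000912, adjusted p = 0.239 by limma), still not called. Rpia had -0.18 ± 0.11 and Ldha -0.14 ± 0.13 (adjusted p = 0.988 each). For the most precise genes the intervals were narrow, such as -0.28 to 0.13 for Pfkfb3, -0.15 to 0.30 for Gapdh, -0.18 to 0.28 for Pgam1 and -0.27 to 0.17 for H6pd. The widest was that of Eno2, at -0.61 to 0.78. Among the neuron arrays replicate 1 stood apart in both treatments, with the highest Eno2 (4.5 in Klotho and 4.52 in control, next 3.67 and 3.59) and the lowest Aldoc (5.87 and 6.32, next 6.68 and 6.81). Of 14 liver markers tested, 6 were among the 37 genes lower with Klotho, and the summed level of the list was 5.64 to 6.79 in Klotho and 10.5 to 18.3 in control arrays. Their part in any change of the enzyme genes was not tested.

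In astrocytes 0 of 30 were called, as were 0.0% of 23564 genes. Without astrocyte Klotho 3, 14 of all genes were higher and 1 lower, and over the arrays with undisputed treatment 22 were higher, with 0 of the 30 among them in both. Limma gave 0 of the 30 an unadjusted p under 0.05, and 889 of all genes. Changes were positive in 14 and negative in 16, between -0.61 and 0.60, with a median of -0.03 beside -0.01 over all genes. No gene had groups without overlap, against 2.55% of all genes. Standard errors had a median of 0.30, against 0.13 in neurons. The smallest p-values belonged to Pfkfb3, G6pdx, Pfkfb4 and Eno2, whose values per array are given above. Pfkfb3 was at 3.1 to 3.67 in Klotho and 2.75 to 3.24 in control arrays, with a change of 0.44 ± 0.22 (95% interval -0.05 to 0.93). G6pdx had -0.61 ± 0.33, Pfkfb4 -0.43 ± 0.26 and Eno2 0.60 ± 0.40 (adjusted p = 1.0 for all 4). By the value table's assignment Pfkfb3 had 0.20 ± 0.25, G6pdx -0.35 ± 0.37, Pfkfb4 -0.22 ± 0.29 and Eno2 0.69 ± 0.38. For the lactate dehydrogenases the intervals were -0.56 to 0.98 for Ldha and -0.93 to 0.64 for Ldhb, and for Hk2 -0.58 to 1.60.

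The Hk2 change in astrocytes, too, depended on which arrays were taken as treated. It was 0.51 ± 0.48 by scanner file and 0.99 ± 0.39 by the value table's assignment (adjusted p = 1.0 each). Over the 2 Klotho and 2 control arrays with undisputed treatment it was 1.5 ± 0.46 (adjusted p = 0.727), from 1.76 and 2.16 in Klotho and 0.82 and 0.10 in control arrays. That set of arrays was chosen after the data were seen, and in it treatment cannot be told apart from slide or column. Eno2 had 1.29 ± 0.50 there (adjusted p = 0.973). With slide row as a block, Pfkfb3 had 0.44 ± 0.18 and Pfkfb4 -0.43 ± 0.17 (adjusted p = 0.441 and 0.433). The summed level of 12 NF-kappaB response genes also varied, at 840, 1730, 75.6 and 1300 in the Klotho arrays 1 to 4 and 136, 147, 30.5 and 25.3 in the control arrays. Its part in the Hk2 values was not tested.

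**Figure D5:**
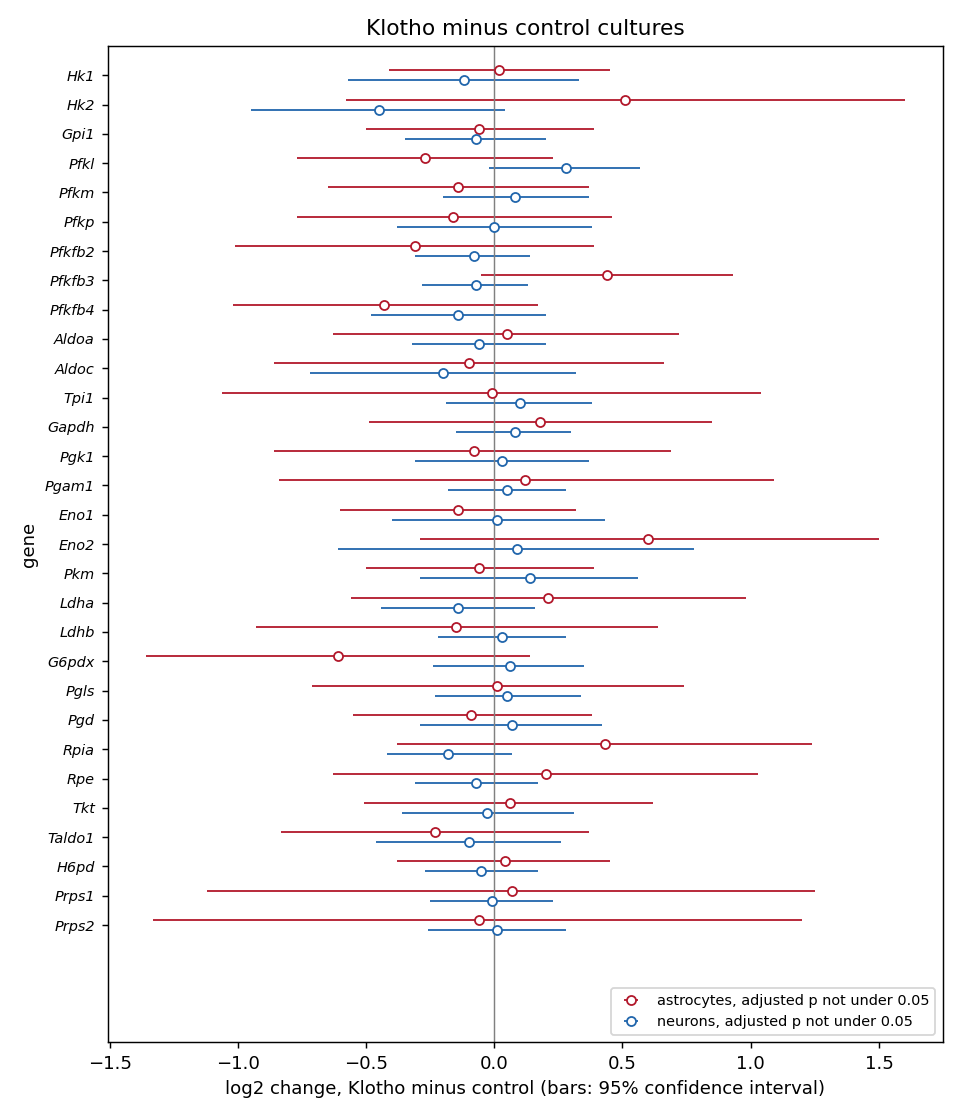
Log2 change of each enzyme gene, Klotho minus control, in astrocytes (red, upper) and neurons (blue, lower), with 95% confidence intervals over 4 arrays per group. Every point is open, as no gene had an adjusted p under 0.05, and the intervals are wider in astrocytes.

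In the isozyme ratios, Klotho against control could pass the adjusted test only if at least 6 of the 10 pairs were fully separated, so a count of 0 says little here. In neurons 0 of 10 pairs passed (smallest exact permutation p = 0.171, adjusted 0.921) and in astrocytes 0 of 10 (smallest p = 0.0286, adjusted 0.143). By scanner file, 2 pairs had astrocyte groups that did not overlap. Ldha over Ldhb was at -1.11, -0.72, -1.26 and -0.83 in Klotho and -1.42, -1.31, -1.33 and -1.30 in control arrays, a difference of 0.36 ± 0.13. Pfkfb3 over Pfkfb4 was at 2.35, 3.19, 1.86 and 2.59 in Klotho and 1.64, 1.78, 1.56 and 1.55 in control arrays, a difference of 0.86 ± 0.28. By the value table's assignment both pairs overlapped, with differences of 0.24 ± 0.17 and 0.42 ± 0.42, and 0 of the 10 pairs were separated. The Klotho effect itself was not called different between astrocytes and neurons for any of the 30 genes (0, where 0.0881% of 26111 genes were), and limma gave 2 of them, and 1375 of all genes, an unadjusted p under 0.05. The differences with the smallest adjusted p were those of Pfkfb3 (0.51, adjusted p = 0.929) and Pfkl (-0.54, adjusted p = 0.947).

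Other genes around the pathway moved in both directions between the cell types, and those named here had the largest calls of their list unless stated. Of 34 other enzymes of glycolysis, gluconeogenesis and pentose metabolism tested in controls, 12 were higher and 12 lower in astrocytes, where 22.3% of all genes were higher and 30.9% lower. Pgm2l1, the glucose 1,6-bisphosphate synthase known from brain, was lower by -6.62 ± 0.25 (adjusted p = 1.43e-07). Eno4 (4.36 ± 0.26, adjusted p = 1.27e-06), Ldhd, the D-lactate dehydrogenase (3.73 ± 0.24, adjusted p = 2.28e-06), and Hk3, a hexokinase known from myeloid cells (4.13 ± 0.33, adjusted p = 7.43e-06), were higher. Hk3 stands beside the higher microglia markers given above.

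Of 18 regulators of the pathway, 4 were higher and 7 lower, near the shares of all genes. Mycn (-7.64 ± 0.22, adjusted p = 5.27e-08) and Mlx (-1.45 ± 0.22, adjusted p = 0.000449), which encode transcription factors, were lower, as were Arrdc4 (-2.53 ± 0.34, adjusted p = 0.000218) and Hif3a (-5.46 ± 0.48, adjusted p = 1.38e-05, above background on 1 of 4 astrocyte control arrays). Of 19 further target genes of hypoxia-inducible factors, 11 were higher and 3 lower, with a median of 1.14. Slc2a1, the glucose transporter GLUT1, was higher by 3.42 ± 0.24 (adjusted p = 3.5e-06) and Adm, adrenomedullin, by 4.46 ± 0.33 (adjusted p = 4.59e-06). Anxa1 was higher by 6.77 ± 0.65 (adjusted p = 2.4e-05) and Car9, a carbonic anhydrase, by 7.56 ± 0.38 (adjusted p = 5.38e-07, above background on 2 of 4 neuron control arrays). The 3 lower targets, smaller in size than the higher ones named here, were Ankrd37 (-2.21 ± 0.20, adjusted p = 1.62e-05), Bnip3 (-1.38 ± 0.49, adjusted p = 0.0412) and Vegfa (-1.29 ± 0.23, adjusted p = 0.00121). Hif1a itself had -0.22 ± 0.32 (adjusted p = 0.589). Of the other hypoxia-inducible factor genes among the regulators, Arnt (0.98 ± 0.20, adjusted p = 0.00275) and Epas1 (0.61 ± 0.22, adjusted p = 0.045) were higher, and Hif3a, given above, was lower.

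Of 12 further genes of NADPH and redox metabolism, 7 were higher and 2 lower, with a median of 1.18. Nqo1, a quinone reductase (3.11 ± 0.47, adjusted p = 0.000472), Idh2, the mitochondrial isocitrate dehydrogenase (2.45 ± 0.28, adjusted p = 7.5e-05), and Hmox1, heme oxygenase (1.81 ± 0.43, adjusted p = 0.00674), were higher. Idh1, the cytosolic isocitrate dehydrogenase, was lower (-1.95 ± 0.25, adjusted p = 0.00019). With Klotho, none of these 4 lists had a called gene in astrocytes. The 2 smallest p-values of each list there belonged to Shpk (-0.62 ± 0.26) and Ldhd (-0.38 ± 0.23), Arrdc4 (2.19 ± 0.74) and Mycn (0.93 ± 0.41), Ankrd37 (-0.61 ± 0.29) and Adm (0.96 ± 0.57), and Mthfd2 (0.50 ± 0.24) and Mthfd1 (-0.31 ± 0.22), with an adjusted p of 1.0 each. In neurons 1 gene was called, Fbp1, the fructose-1,6-bisphosphatase of gluconeogenesis (-1.49 ± 0.16, adjusted p = 0.0105), which liver also expresses strongly.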

How the data were processed

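Gene expression was measured on 16 Agilent one-colour arrays. Per the file headers, the authors' deposited scanner files come from Feature Extraction 12.0.3.1, and their processed intensity is background-subtracted and detrended but not scaled between arrays. The deposited value table holds a score, which matched the log2 processed signal of 1 array standardised to a mean of 0 and an SD of 1. It served as an alternative, and how it was made is not given in the sources used here. Of its 8 astrocyte columns, 6 matched the scanner file of another sample.

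Spots flagged as outliers were dropped, spots of a probe averaged, and log2 intensity centred on the array's 75th percentile. Probes were named by RefSeq accession through a GRCm38.p6 gene table (28325 of 55681 probes), and promoters taken from RefSeq windows of that build. Genes entered a test if, in 1 compared group or both, every array had the brightest probe well above background. The fit was limma 3.58.1 in R 4.3.3, tested on simulated data, with p-values adjusted over all genes. Isozyme ratios were tested by exact permutation, written out with numpy 2.4.6 under Python 3.11.15. The number of arrays limits the precision. Genes named were all 30 members, with values per array for up to 6 called members per direction between control cultures and the 4 smallest p per Klotho comparison. Of other lists, up to 4 called members by size were named, or the 2 with the smallest p. Hif1a, Arnt, Epas1, the lower hypoxia-inducible factor targets, Itgam and Snap25 were named in addition, after their values were seen.

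The members and lists were chosen with earlier results of these data known. Same-numbered arrays deviated together within neurons (r = 0.175 to 0.778) and astrocytes (0.181 to 0.724), from the replicate numbers in the titles, and this served as pairing. Only 2 of 4 neuron Klotho arrays correlated best with the control of their own number, against 4 of 4 in astrocytes. In neurons the replicate number is also the slide column, and the 2 cannot be told apart. Between cell types same-numbered arrays did not deviate together (-0.151 to 0.263 and -0.103 to 0.0113). The lists were other pathway enzymes, regulators, hypoxia-inducible factor targets, NADPH genes, NF-kappaB response genes and markers of neurons, astrocytes, microglia, oligodendrocyte lineage (lower in astrocyte controls for 6 of 12, higher for 1), vascular cells and fibroblasts (7 of 11 higher, 2 lower) and liver. Normexp used the median spot signal. No protein sequences were used here.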

Additional observations from a re-analysis of the deposited data

Results flagged for a closer look

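The highest or the lowest of 4 arrays lay far from the other 3 (the gap to the nearest of them, over the range, was above Dixon's 95% critical value) in 9 of 120 sets of 4 values, where chance gives about 1 in 20. Of these, 5 concern replicate 1 of the neurons. Hk1 was at 6.74 in neuron control 1, with the others at 6.12 to 6.19. Aldoc was at 5.87 in neuron Klotho 1 (others 6.68 to 6.76) and at 6.32 in neuron control 1 (others 6.81 to 6.90). Pgk1 was at 5.48 in neuron Klotho 1 (others 5.13 to 5.16), and Prps2 at -0.99 in the same array (others -0.64 to -0.57). Elsewhere, H6pd was at 0.87 in astrocyte Klotho 2 (others 1.17 to 1.19), Tkt at 5.09 in astrocyte control 4 (others 5.72 to 5.80), Rpe at 0.03 in neuron control 2 (others -0.25 to -0.21) and Prps1 at 3.37 in neuron control 4 (others 3.63 to 3.68). No cause of these values was tested.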

How the results depend on the processing

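Counts of called genes among the 30 moved with scaling between arrays and with single arrays. In astrocyte control minus neuron control (6 higher, 5 lower), quantile scaling gave 13 and 2, the deposited values 11 higher and 3 lower, and median scaling 1 lower. The fit of all 16 arrays gave 8 lower, the replicate block 3 and the arrays with undisputed treatment 3. In Klotho cultures (8 higher, 10 lower), 5 were lower with median scaling, 5 with quantile scaling and 6 with no filter. Leaving out 1 array gave 5 to 7 higher and 4 to 7 lower in control cultures, and 6 to 8 and 4 to 10 in Klotho cultures, where 4 were lower without neuron Klotho 1 or 3. For slide rows (2 higher, 13 lower), median scaling gave 0 higher, quantile scaling 7 higher and 8 lower, and the value table's assignment 1 higher. Hk1 in control cultures turned from -0.70 to 0.01 under quantile scaling. The cause of these moves was not tested. With Klotho, 0 of the 30 were called in either cell type under every alternative run, leave-one-out included (0 to 0), and the difference of the effects gave 0 throughout. With the replicate block the Klotho cultures had 7 higher and 7 lower, and neither Klotho effect gained a call among the 30. Between cell types the replicate numbers name arrays without pairing them. Over all genes in neurons, 37 lower became 7 with normexp, 4 with genes above background on every array, 24 with the replicate block, 18 to 56 without 1 array (56 without control 2, 20 without control 3 or Klotho 1, 18 without control 4) and 62 in the value table, where 8 of the 30 had an unadjusted p under 0.05, and no filter gave 3855 higher. Choosing arrays with undisputed treatment, both treatments together, slide rows and median spot signals followed a look at the data. All 30 genes were well above background on every array.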
